A study of Drosophila melanogaster with 6 samples.

Results

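The regions described here are 650 sites that carried the enhancer-associated mark H3K4me1 and the histone kinase JIL-1 but not H3K27ac in Kc167 cells, a line from female late embryos of Drosophila melanogaster. They were chosen from the 9559 called H3K4me1 peaks by position alone. On the main chromosomes (X, both arms of 2 and 3, and 4) there were 9529, of which 2834 kept a distance of 500 bp or more from every H3K4me3 peak. H3K27ac was missing from 2121 of these, and 650 of the 2121 shared at least 1 bp with a JIL-1 peak. The labels name no treatment and a serum-free medium, and chromatin from this one line was immunoprecipitated with antibodies against H3K4me3, H3K4me1, H3K27ac, JIL-1, H3K9acS10ph or H3K27acS28ph before sequencing. There was 1 library per antibody, so no comparison has a replicate, and every interval below is a 95% counting interval within these lists (Wilson for a share, Newcombe for a difference of shares) that treats neighbouring sites as independent.

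H3K4me1 marks enhancers and the flanks of promoters, and H3K27ac, which CBP places in flies, accompanies active enhancers, so distal H3K4me1 without H3K27ac is commonly read as enhancer chromatin that is primed or inactive. JIL-1 is a kinase that phosphorylates serine 10 of histone H3 outside mitosis. The remaining antibodies recognise double modifications, in which an acetylated lysine stands next to a phosphorylated serine (K9 with S10, and K27 with S28). The lists of these double modifications played no role in choosing the sites.

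JIL-1 was called at 30.6% of the 2121 H3K4me1 sites away from H3K4me3 and without H3K27ac (28.7 to 32.6), and the other 1471 form the nearest comparison. Over all H3K4me1 arm peaks, most of them beside H3K4me3, the JIL-1 share was 71.8%. The limits that define the class cut through a continuous range of positions. The sites just inside the 500 bp limit lay 501 bp from H3K4me3 (chrX:2338814-2339811), 509 bp (chr2L:6058681-6059489) and 514 bp (chrX:13192629-13193725). Those just outside it, also with JIL-1 and without H3K27ac, lay at 492 bp (chr2R:8609263-8612370), 480 bp (chr2L:16169916-16171394) and 479 bp (chrX:9565100-9566557), and 69 such peaks in all lay closer than 500 bp without overlap. The smallest overlaps with JIL-1 that admitted a site were 7, 16 and 18 bp. On the other side, 99 of the 1471 sites without JIL-1 lay less than 500 bp from a JIL-1 peak, with the nearest at 0, 11 and 13 bp. Coordinates are 1-based with both ends included, on scaffolds named as in release 5 of the fly genome. Neighbouring genes were not analysed here.

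H3K9acS10ph was present at a minority of the JIL-1 sites without H3K27ac. It overlapped 132 of the 650 (20.3%, 17.4 to 23.6), against 68.7% of all H3K4me1 arm peaks and 21.3% of all those at least 500 bp from H3K4me3. The share was thus near that of distal H3K4me1 peaks as a whole. Within that group, however, it lay between 2 unlike neighbours. Of the 1471 sites with neither JIL-1 nor H3K27ac, 135 had H3K9acS10ph (9.18%, 7.81 to 10.8), and of the 447 distal sites with both JIL-1 and H3K27ac, 250 had it (55.9%, 51.3 to 60.5). The JIL-1 sites without H3K27ac exceeded the former by 11.1 percentage points (7.81 to 14.7), a ratio of 2.21, and fell below the latter by 35.6 points (difference -35.6, -41.0 to -30.0). Distal sites with H3K27ac but without JIL-1 also had the mark more often, at 33.1% of 266 (27.7 to 38.9).

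H3K27acS28ph was rare here. It overlapped 9 of the 650 sites (1.38%, 0.730 to 2.61), against 31.7% of all H3K4me1 arm peaks and 2.29% of those at least 500 bp from H3K4me3. At the 1471 sites without JIL-1 it overlapped 18 (1.22%, 0.775 to 1.93), so the difference was 0.161 points (-0.799 to 1.47). The difference moved with the processing. With every peak replaced by 1000 bp around its midpoint, which gave 1001 sites, the share was 4.80% and the difference 2.43 points (1.08 to 4.02). This setting also shortened the H3K27ac and H3K4me3 peaks that exclude sites (arm medians 2522 and 1243 bp). Sites that overlap a full-length peak of either could therefore enter, and 2490 sites had no JIL-1. With peaks as called, the share at distal sites with both JIL-1 and H3K27ac was 5.59% (3.82 to 8.13). It was higher by 4.21 points than at the JIL-1 sites without H3K27ac (difference -4.21, -6.82 to -2.05). Both phosphoacetylated marks met at 5 of the 650 sites, H3K9acS10ph stood alone at 127 and H3K27acS28ph alone at 4. At the other 514 (79.1%, 75.8 to 82.0) JIL-1 was called with neither of them, compared with 43.0% of the sites that also had H3K27ac (38.4 to 47.6). Both marks were missing more often, at 89.9% (88.3 to 91.4), from the 1471 sites without JIL-1 and H3K27ac. At distal sites with H3K27ac but without JIL-1 that share was 65.4% (59.5 to 70.9). The lists differ in length, with 6873 H3K9acS10ph and 3223 H3K27acS28ph peaks on the arms. With H3K9acS10ph reduced to its 3223 highest-scoring arm peaks, its share at the sites was 1.54% (0.838 to 2.81) and its excess over sites without JIL-1 was 0.995 points (0.119 to 2.29).

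**Figure D1:**
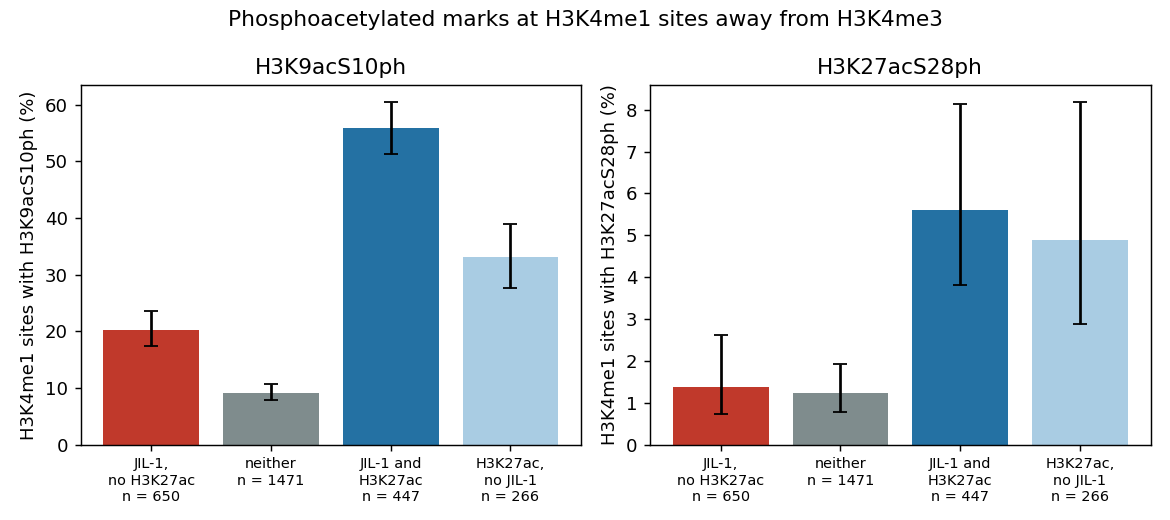
Share of H3K4me1 sites at least 500 bp from H3K4me3 that overlap H3K9acS10ph (left) or H3K27acS28ph (right), in percent, by the presence of JIL-1 and H3K27ac. Bars are shares and whiskers are 95% Wilson intervals. H3K9acS10ph stands at 20.3% where JIL-1 is present without H3K27ac, between 9.18% with neither and 55.9% with both, whereas H3K27acS28ph is at 1.38% and 1.22% in the classes without H3K27ac.

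H3K4me1 itself was broader and stronger at the sites with JIL-1. The median width was 1785 bp (quartiles 1146 and 2827) with JIL-1 and 1213 bp (899 and 1754) without it, and 3859 bp at sites that also had H3K27ac. The peak score, which the authors' peak caller gave and which is used here only within one list, had a median of 891 with JIL-1 (quartiles 221 and 3100) and 246 without it (105 and 672). Scores pile up at 3100, and 170 of the 650 sites (26.2%) reached that value, against 72 of 1471 (4.89%) without JIL-1 and 28.8% of all H3K4me1 arm peaks. A wide site meets any other list more easily, so these figures describe the sites and are tied to how they were chosen. Among sites without H3K27ac the share with JIL-1 went from 18.1% under 1 kb to 26.9% at 1 to 2 kb, 47.0% at 2 to 4 kb and 72.0% at 4 kb or more.

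The H3K9acS10ph share followed width and H3K4me1 score as well. With JIL-1 it was 8.04% under 1 kb, 13.7% at 1 to 2 kb, 26.98% at 2 to 4 kb and 44.8% at 4 kb or more, and without JIL-1 it was 6.69%, 8.06%, 15.3% and 30.8% in the same bins. The share was higher with JIL-1 in all 4 width bins, but the interval of the difference lay above 0 in only 2 of them. The differences were 1.34 points under 1 kb (-3.17 to 8.14), 5.61 at 1 to 2 kb (1.30 to 10.7), 11.7 at 2 to 4 kb (4.21 to 19.1) and 14.01 in the widest bin (-8.29 to 32.6), which held 67 and 26 sites. Distal sites with both JIL-1 and H3K27ac had higher shares in the same bins, at 19.0% of 21, 30% of 70, 51.4% of 138 and 70.6% of 218 sites. Giving the sites without JIL-1 the mix of widths of the 650 sites raised their share from 9.18% to 12.6% and left a difference of 7.75 points. With the same mix of H3K4me1 scores their share was 14.8% and the difference 5.50 points, and of the 5 score bins only that from 100 to 300 had an interval above 0 (5.12 points, 0.197 to 12.0). The H3K9acS10ph excess was thus 11.1 points without weighting, 7.75 points with weighting by width bin and 5.50 points with weighting by score bin. Widths and scores could still differ within a bin.

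**Figure D2:**
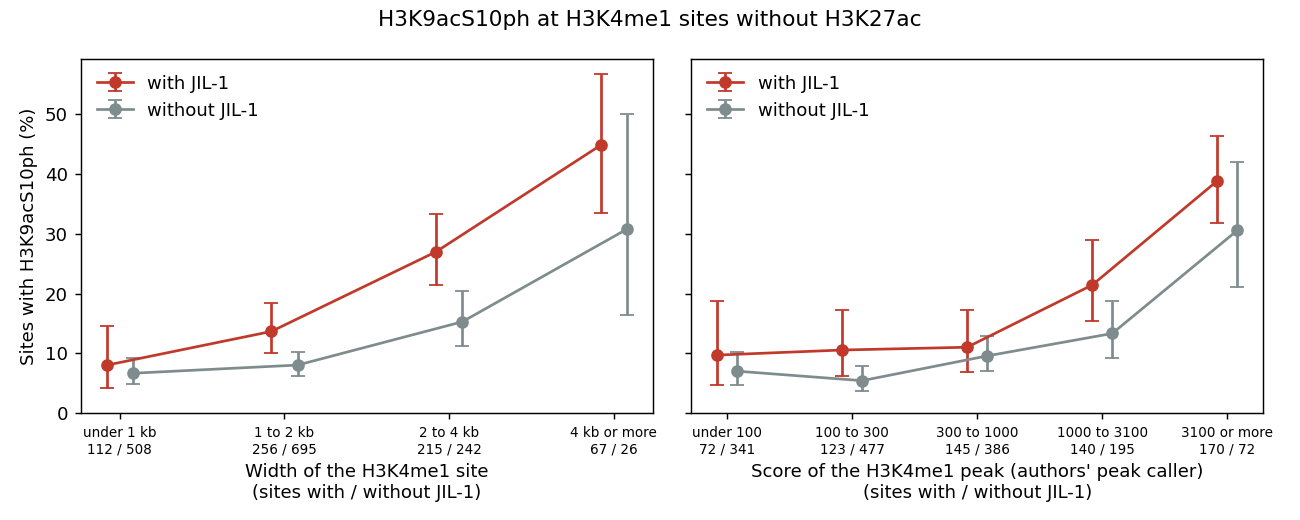
Share of H3K4me1 sites without H3K27ac that overlap H3K9acS10ph, in percent, by width of the site (left) and by score of the H3K4me1 peak (right), for sites with and without JIL-1. Points are shares, whiskers are 95% Wilson intervals, and the numbers under each bin count the sites with and without JIL-1. Both series rise, from 8.04% to 44.8% with JIL-1 and from 6.69% to 30.8% without it over the width bins.

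The H3K9acS10ph peaks at these sites had low scores. The 138 peaks involved had a median score of 119 (quartiles 75.1 and 175), against 337 for all H3K9acS10ph arm peaks, 96.9 at sites with neither JIL-1 nor H3K27ac and 153 at sites with both. Few of them reached into other active chromatin beside the site, with 7 overlapping an H3K27ac peak (5.07%) and 4 an H3K4me3 peak (2.90%), compared with 69.9% and 74.2% of all H3K9acS10ph arm peaks. JIL-1 overlapped 119 of the 138 (86.2%), against 73.5% of all H3K9acS10ph arm peaks. The rule that chose the sites keeps H3K27ac and H3K4me3 away and places JIL-1 at each of them, so these 3 shares describe the choice of sites and are no results about the mark.

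Inside a site H3K9acS10ph covered more of the JIL-1 portion than of the rest. Both lists also covered site centres more often than positions 1 kb away, and position within the site was not held equal here. In 120 of the 132 sites with H3K9acS10ph (90.9%, 84.8 to 94.7) the mark met a JIL-1 peak within the bounds of the site, each of which has JIL-1 by the rule. JIL-1 covered 34.8% of the 398 kb of these sites, and H3K9acS10ph covered 75.4% of that JIL-1 portion and 42.7% of the remainder. Over all 650 sites the corresponding coverage was 17.8% and 12.9%, a ratio of 1.38. The same ratio at distal sites with JIL-1 and H3K27ac was 1.98, from 47.6% and 24.1%. Sites with H3K9acS10ph were wider than those without it (medians 2662 and 1653 bp) and had higher H3K4me1 scores (3007 and 669), while their medians of the highest JIL-1 score were 245 and 193 and their distances from H3K27ac were 8535 and 8434 bp.

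The JIL-1 peaks at these sites were mostly single and narrower than JIL-1 arm peaks as a whole. The 650 sites met 709 JIL-1 peaks, with 1 peak at 582 sites, 2 at 62, 3 at 5 and 4 at 1 site, and 16 JIL-1 peaks touched more than 1 of the sites. Their median width was 985 bp (quartiles 791 and 1183), against 1076 bp for all JIL-1 arm peaks, 1064 bp at distal sites with H3K27ac and 1400 bp over H3K4me3. JIL-1 peaks that met no other list were narrower still, with a median of 742 bp. Of the 709, 23 also overlapped an H3K27ac peak outside the site (3.24%) and 8 an H3K4me3 peak (1.13%), against 53.9% and 51.9% of all JIL-1 arm peaks, low shares that the choice of sites sets. JIL-1 midpoints mostly fell within the H3K4me1 domain, which the overlap rule favours, and were spread along it. As a fraction of site width from the left end, their position had a median of 0.489 (quartiles 0.278 and 0.689). The midpoint of the highest-scoring JIL-1 peak lay inside the site at 529 of 650 sites (81.4%, 78.2 to 84.2), to its left at 53 and to its right at 68. The median distance between JIL-1 midpoint and site centre was 387 bp, and the median share of the site under JIL-1 was 45.7% (quartiles 30.0 and 66.9). At distal sites with H3K27ac, which were wider, JIL-1 covered a median of 29.1% and its midpoint lay 947 bp from the centre.

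Seen around the centres of the sites, JIL-1 peaks covered 62.0% of the 650 positions at the centre, 21.7% at 1 kb to either side and between 11.4% and 13.1% at 2 kb, near the 15.5% and 16.5% found 10 kb away on either side. H3K9acS10ph covered 14.5% of the centres and between 10.3% and 10.5% of the positions 1 kb away, and its coverage 10 kb away was 18.5% to the left and 16% to the right. At centres without JIL-1 the H3K9acS10ph coverage was 7.14%. Near the centre of the JIL-1 sites H3K9acS10ph coverage was highest 0.25 kb to the right, at 15.4%. It thus did not exceed the coverage 10 kb away. H3K27ac, absent from the centres by definition, covered 15.4% and 16.5% of the positions 10 kb to either side.

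**Figure D3:**
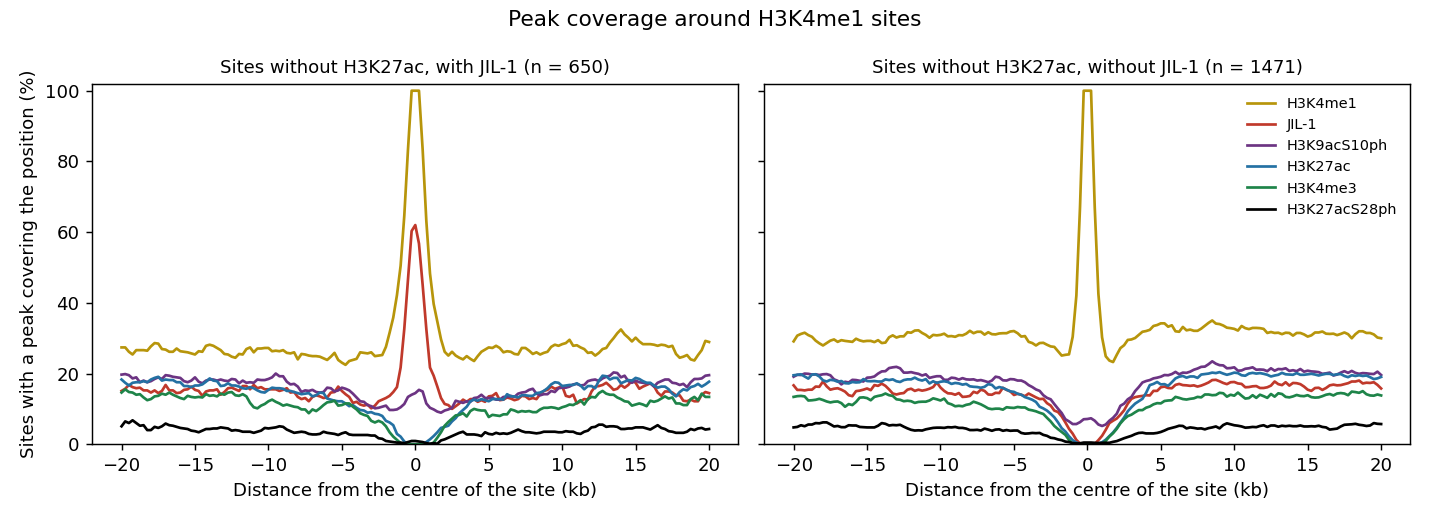
Share of sites, in percent, with a called peak of each list covering a position at a given distance in kb from the centre of the site, for H3K4me1 sites without H3K27ac with JIL-1 (left, 650) and without JIL-1 (right, 1471). Each line is 1 list. JIL-1 reaches 62.0% at the centre on the left and is 0 there on the right by definition. H3K9acS10ph covers 14.5% of the centres on the left and 7.14% on the right.

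JIL-1 scores at the sites spanned the range of the whole list. The median JIL-1 score was 185 (quartiles 84.4 and 596), against 163 for all JIL-1 arm peaks, 211 at distal sites with H3K27ac, 263 over H3K4me3 and 79.5 for JIL-1 peaks that met no other list. At the upper end, 22 of the 709 peaks scored 3100 or more (3.10%, 2.06 to 4.65), compared with 1.35% of all JIL-1 arm peaks and 6 of 613 at distal sites with H3K27ac (0.979%, 0.449 to 2.12). That difference was 2.12 points (0.578 to 3.76), with 22 peaks counted in both groups because they touched a site of each kind. The upper 10% of the JIL-1 list took in 14.1% of the peaks at the sites (11.7 to 16.9), 12.4% of those at distal sites with H3K27ac (10.0 to 15.2) and 13.5% of those over H3K4me3. Of the 58 JIL-1 arm peaks that scored 3100 or more while being under 1500 bp wide, 16 lay at these sites. At any width it was 22 of the 166 that scored 3100 or more. At any score the sites held 627 of the 8865 JIL-1 arm peaks under 1500 bp and 709 of all 12295.

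Most JIL-1 peaks at the sites lacked H3K9acS10ph, at low and at high scores. Of the 709 peaks 133 overlapped that mark (18.8%, 16.1 to 21.8), against 55.7% of all JIL-1 arm peaks. Ordered by the highest JIL-1 score and divided into 4 groups of 162 or 163, the sites had H3K9acS10ph in 19.6%, 16.7%, 19.8% and 25.2% from the lowest to the highest scores. The top group exceeded the bottom group by 5.52 points (-3.55 to 14.5), within counting error. Median site width grew along the same order, from 1501 to 1629, 2019 and 2268 bp. H3K27acS28ph was found at 2, 3, 3 and 1 sites of the 4 groups. Of the 23 sites with a JIL-1 score of 3100 or more, 6 had H3K9acS10ph and none had H3K27acS28ph. The 101 sites with a JIL-1 score in the upper 10% of the list had H3K9acS10ph more often, at 30 sites (29.7%, 21.7 to 39.2). Over all 650 sites the share was 20.3%. These 101 sites were also wider, with a median of 2045 bp against 1785 bp for all 650. Over the 650 sites Spearman's rho between the highest JIL-1 score and the H3K4me1 score was 0.25, and between JIL-1 score and site width it was 0.21. All the sites come from the same libraries, and the scores depend on their depth. Where the JIL-1 midpoint fell outside the H3K4me1 peak the H3K9acS10ph share was 13.2% (16 of 121), against 21.9% (116 of 529) where it fell inside, a difference of 8.71 points (0.796 to 14.9). The former sites were narrower, with a median of 1299 bp against 1941 bp.

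**Figure D4:**
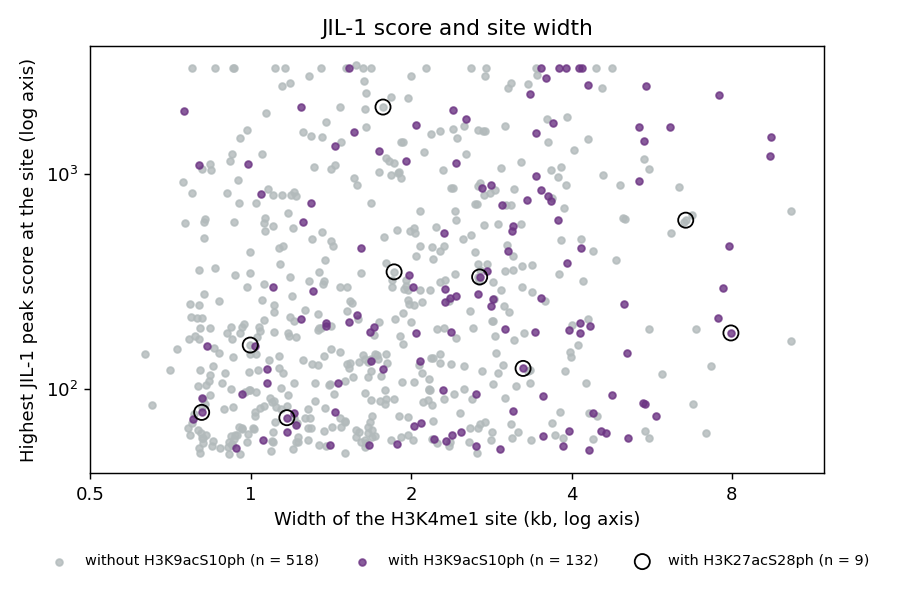
Highest JIL-1 peak score at each of the 650 sites against the width of the H3K4me1 site in kb, both on log axes, with 1 point per site. Sites with H3K9acS10ph (132) are purple, and the 9 with H3K27acS28ph are ringed. Purple points lie mainly to the right (median width 2662 against 1653 bp) and are spread over the whole range of JIL-1 scores, which pile up at 3100.

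The sites with higher JIL-1 scores lay farther from H3K27ac and H3K4me3 peaks. The rule used both of these lists to choose the sites, so the distances below describe the chosen sites. Median site width also rose from the lowest to the highest score group, from 1501 to 2268 bp. Distances were not compared at equal width. The median distance from the nearest H3K27ac peak was 6527 and 5811 bp in the lower JIL-1 score groups and 10561 and 13718 bp in the upper ones, and from H3K4me3 it was 4903, 5165, 8660 and 11339 bp. Spearman's rho between JIL-1 score and the distance from H3K27ac was 0.22. Taken as a class, the 650 sites had a median distance of 8479 bp from H3K27ac (quartiles 2897 and 22143) and 7527 bp from H3K4me3, against 5955 and 6341 bp at the sites without JIL-1. An H3K27ac peak lay within 10 kb of 54.9% of the JIL-1 sites and of 66.2% of the sites without JIL-1, a difference of -11.3 points (-15.8 to -6.78), and for H3K4me3 the shares were 58.2% and 65.3% (difference -7.18, -11.7 to -2.70). At 136 of the 650 (20.9%, 18.0 to 24.2) no peak of H3K4me3, H3K27ac or either phosphoacetylated mark lay within 10 kb. The same held for 239 of the 1471 sites without JIL-1 (16.2%, 14.5 to 18.2). Within 1 kb the order was reversed, with no such peak at 63.7% of the JIL-1 sites and 74.2% of the sites without JIL-1. Overlap counted as a distance of 0 here, and H3K9acS10ph overlapped 20.3% of the former and 9.18% of the latter. The reversal thus includes that difference in overlap and is no separate result about distance. For H3K27ac alone the direction was not the same at short range. Within 1 kb of an H3K27ac peak lay 68 of the JIL-1 sites (10.5%, 8.34 to 13.1), the nearest at 4 bp, and 7.34% of the sites without JIL-1 (6.12 to 8.79), and within 2 kb the shares were 18.5% and 18.3%. The H3K9acS10ph share varied little with that distance, at 18.3% under 2 kb from H3K27ac, 20.7% at 2 to 10 kb and 20.8% farther away.

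The arms held the sites in similar proportion. JIL-1 was called at 32.8% of the H3K4me1 sites without H3K27ac on 2L, 31.2% on 2R, 31.0% on 3L, 30.8% on 3R, 28.6% on chromosome 4 (8 of 28) and 27.98% on X. JIL-1 is known to be enriched on the male X, and these cells are female. The X share differed from that of the autosomal arms 2L to 3R by -3.45 points (-7.98 to 1.35), within counting error. There were 5.75 sites per Mb on X and 5.31 on those autosomal arms, with arm lengths taken as the largest peak end. H3K9acS10ph was more frequent with JIL-1 than without it on each of the 5 large arms, at 13.4% and 7.31% on 2L, 26.4% and 12.4% on 2R, 23.6% and 10.3% on 3L, 25% and 10.8% on 3R, and 14.7% and 6.33% on X. The interval of the difference lay above 0 on 2R, 3L, 3R and X and included 0 on 2L (6.08 points, -0.103 to 13.5). None of the 8 sites on chromosome 4 had H3K9acS10ph, a share with a Wilson upper limit of 32.4% (a count of 3 in 8, the limit used for a count of 0, would be 37.5%). The 20 sites without JIL-1 on that chromosome had none either (upper limit 16.1%). Between X and the autosomal arms the H3K9acS10ph share of the JIL-1 sites differed by -7.30 points (-13.6 to 0.590).

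**Figure D5:**
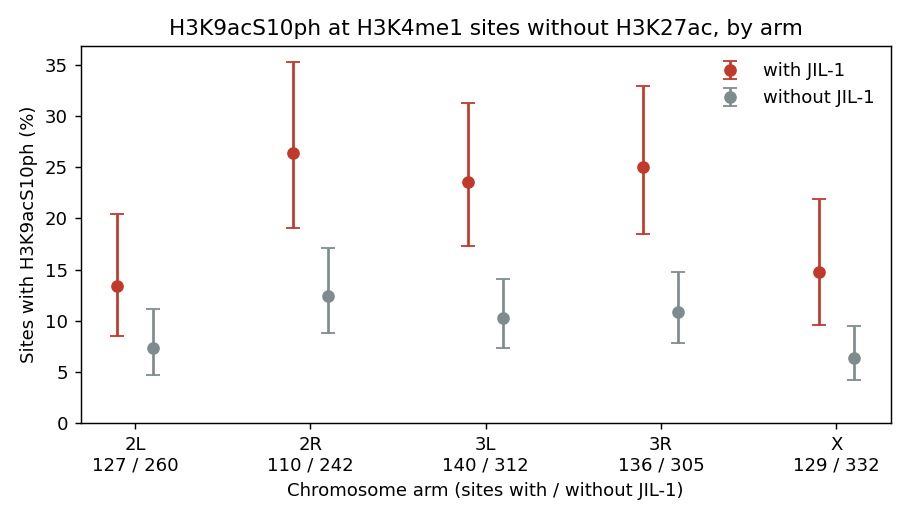
Share of H3K4me1 sites without H3K27ac that overlap H3K9acS10ph, in percent, on the 5 large chromosome arms, for sites with and without JIL-1. Points are shares, whiskers are 95% Wilson intervals, and the numbers under each arm count the sites with and without JIL-1. The sites with JIL-1 stand above those without on each of these arms, with the smallest difference, 6.08 points, on 2L.

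Most of the sites had other kinds of H3K4me1 peaks as neighbours. Of the 650, 460 had no other such site as their immediate neighbour among H3K4me1 arm peaks, and the rest formed 70 runs of 2, 11 of 3, 3 of 4 and 1 of 5. The next H3K4me1 peak along the arm was another such site in 16.2% of cases (13.5 to 19.2), in 13.0% after a site without JIL-1 (11.4 to 14.8) and in 6.83% after any H3K4me1 arm peak. In 124 windows of 1 Mb the median was 5 sites, the highest count was 13 and 6 windows had none. By definition a run holds no other H3K4me1 peak, and its sites lack H3K27ac and lie at least 500 bp from H3K4me3. Low counts of H3K27ac and H3K4me3 in the runs below therefore follow in part from the choice. The run of 5 lay at chr3R:12528109-12746964 and spanned 219 kb. It held 17 JIL-1 peaks and 5 H3K4me1 peaks, with 0 of H3K27ac, 0 of H3K9acS10ph, 1 of H3K4me3 and 1 of H3K27acS28ph. Its sites were narrow, from 914 to 1575 bp, with highest JIL-1 scores of 3202, 1154, 2845, 339 and 596 in order along the arm. A run of 4 at chr3R:2673414-2827506 was alike in this, with 14 JIL-1 peaks in 154 kb, none of H3K27ac, 2 of H3K9acS10ph that met none of its sites, and JIL-1 scores at the sites from 1143 to 3100. The other runs of 4 were shorter, at chr2R:19498146-19526238 and at chr3L:18053994-18093922, and neither held an H3K27ac peak.

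The site with the highest JIL-1 score, 3202, was the first of the run of 5, at chr3R:12528109-12529683. It was 1575 bp wide, JIL-1 covered 79.6% of it, and the nearest H3K27ac, H3K4me3 and H3K9acS10ph peaks were 46224, 47493 and 48976 bp away. The next, at chrX:4317483-4321920, scored 3111, had its nearest H3K9acS10ph peak 358 bp away and lay 56309 bp from H3K27ac. The other sites of the top 5 were among those tied at 3100 and were ranked by width. That at chr3R:22706037-22710808 had no phosphoacetylated mark, and those at chr2R:10343309-10347494 and at chrX:9183079-9187206 had H3K9acS10ph. H3K9acS10ph was thus present at 2 of these 5 sites.

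The widest site lay at chr4:520760-531100 (10.3 kb), with 3 JIL-1 peaks over 38.3% of its length and no phosphoacetylated mark. Next came the site at chrX:7205531-7215841, also without either mark, and then those at chr2R:3605040-3614508, at chr3L:611229-620663 and at chr2R:18473979-18481942, each with H3K9acS10ph. All 5 had an H3K4me1 score of 3100, while their JIL-1 scores ran from 168 to 1480. The site at chr2R:18473979-18481942 had H3K27acS28ph as well.

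The 9 sites with H3K27acS28ph were a mixed group. Their widths ran from 809 to 7964 bp, and the H3K27acS28ph peaks there had a median score of 105 (55.5 to 1225), against 141 for all arm peaks of that list. Those with both phosphoacetylated marks lay at chr2L:6058681-6059489, at chr2R:18473979-18481942, at chr3L:13659833-13663076, at chr3L:22793218-22795906 and at chrX:4322436-4323604. The last of these lay beside the X site that ranked second for JIL-1, and its own JIL-1 score was 73.8. Those with H3K27acS28ph alone lay at chr2L:10389727-10391584, at chr2R:8340524-8342294, at chr3L:9116895-9123445 and at chrX:2338814-2339811. The strongest JIL-1 call among the 9 was 2049, at chr2R:8340524-8342294, and 3 of the 9 lay less than 1 kb from H3K4me3. In these 9 sites H3K27acS28ph covered 48.3% of the portion under JIL-1 and 13.4% of the rest.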

How the data were processed

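Chromatin from Kc167 cells was fixed, sheared and immunoprecipitated with 1 of 6 antibodies, per the labels' protocols. The aligner was Bowtie 0.12.5, as the submitters' processing notes give it. For each sample the authors deposited the called peaks, with start, end and score. Peak names carry the name MACS, but its settings, input and build were not given in the sources used. The deposited positions are in bp, another kind of value than the score, and 2 starts lay below 0. Scores were compared only within a list. Read depth is unknown, and depth and antibody efficiency move the number and width of called peaks. The gene table supplied is of release 6, whereas scaffolds carry release 5 names, so no genes were assigned.

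Overlap meant at least 1 bp, and distance the bases between peaks. Samples were grouped by antibody and none was left out. The sites and the comparisons were chosen with earlier results of these data known. Regions named are the 5 with the highest JIL-1 score (the highest of a site's JIL-1 peaks, ties by width), the 5 widest, all with H3K27acS28ph, the 3 on either side of the 500 bp limit and the longest runs. The rule asked for 3 runs, and 3 tied for the second place. Weighted shares used 4 width bins and 5 score bins. No test across replicates was possible. Python 3.11.15, numpy 2.4.6, scipy 1.17.1, pandas 2.3.3 and matplotlib 3.10.9 were used, and the procedures were tested on simulated data.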

Additional observations from a re-analysis of the deposited data

How the results depend on the processing

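There was 1 library per antibody and read depth is unknown, so the spread between chromatin preparations was not measured. No paired analysis was possible because no antibody had a replicate. Sites were chosen anew in each setting. The H3K9acS10ph excess of sites with JIL-1 over sites without it stayed above 0 in every setting, from 0.995 to 12.5 points. The cause of the changes listed here was not tested.

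When overlaps had to reach 50% of the shorter peak, the median H3K4me1 score was 1167 and the JIL-1 midpoint lay inside 97.2% of sites. With every list cut to its upper 50% by score, the H3K9acS10ph share was 13.97%, its excess 6.61 points and the H3K27acS28ph share 0.599%. Median widths were then 3503 bp for H3K4me1 and 1208 bp for JIL-1, median scores 3100 and 597, the midpoint share 87.2% and the distance from H3K27ac 15586 bp. With JIL-1 alone cut to its upper 50% there were 371 sites, with median widths of 2024 and 1125 bp, scores of 1442 and 545 and a distance of 11041 bp. With 1000 bp windows, which leave no widths to compare, there were 1001 sites, with H3K27acS28ph at 4.80% and in excess by 2.43 points (1.08 to 4.02), an H3K4me1 score of 1628, a midpoint share of 59.3% and a distance of 4326 bp. Windows also shortened the H3K27ac and H3K4me3 peaks that exclude sites, so sites that overlap a full-length peak of either could enter. With 2000 bp from H3K4me3 the JIL-1 score was 208 and the distance from H3K27ac 10832 bp. With 2000 bp from H3K27ac the H3K4me1 score was 1133 and that distance 11451 bp. The middle 50% of site widths left 287 sites, with H3K9acS10ph at 14.3%, in excess by 6.29 points (2.13 to 11.1), a median width of 1387 bp and an H3K4me1 score of 454.

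Of the settings chosen after seeing the data, H3K9acS10ph cut to 3223 arm peaks gave 1.54% and an excess of 0.995 points, and weighting gave excesses of 7.75 points by width and 5.50 by H3K4me1 score. Requiring no overlap with H3K4me3 in place of a distance gave 719 sites and left every other value within its interval. The arms with most and least JIL-1 were picked anew in each setting, so their difference could not turn negative. It therefore cannot show whether the order of the arms held. As reported it was 2L minus X (4.83 points), and with every list cut to its upper 50% it was X minus 3L (4.85 points). The interval of this difference included 0 in every setting where it was computed. The difference in H3K27acS28ph had an interval above 0 with windows only, and its sign turned, within counting error, at 2000 bp from H3K4me3 (-0.368 points) and in the middle 50% of widths (-0.0256 points).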

Other observations

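Outside the arms, on heterochromatin scaffolds or unplaced sequence, 6 H3K4me1 peaks lay at least 500 bp from H3K4me3 without H3K27ac. JIL-1 overlapped 4 of them, none of the 4 had H3K9acS10ph and 1 had H3K27acS28ph.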
